A study of Mus musculus with 5 samples.

Results

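Replication-dependent histone genes were measured by RNA sequencing in the tumor-bearing right brain hemisphere of GL261-bearing mice. The set held the protein-coding genes of the mouse annotation whose symbols begin with Hist1h, Hist2h, Hist3h or Hist4h, which gave 67 members of the 55573 genes in the count files. The members were 6 linker histone H1 genes, 18 H2A genes, 18 H2B genes, 12 H3 genes and 13 H4 genes. The Hist1 genes numbered 54 on chromosome 13, the Hist2 genes 10 on chromosome 3 and the Hist3 genes 2 on chromosome 11, while Hist4h4 was the 1 member on chromosome 6.

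The study asked how repeated ultrasound-mediated blood-brain barrier opening (UMBO) changed gene expression in a glioma model. Every mouse was a C57BL/6 female, aged 7 to 8 weeks when GL261 cells, a mouse glioma line carrying a luciferase/mKate2 vector, were placed in the right caudate-putamen. The UMBO group (2 libraries) received intravenous microbubbles and low-intensity pulsed ultrasound, and the vehicle group (3 libraries) received a dilution buffer. Sessions fell on days 21 and 24 and tissue was taken 24 h after the last session. The 5 libraries came from different mice, so the spread between them was a spread between animals. Whether the vehicle mice were given microbubbles or a sham sonication is not stated in the methods. A transplanted line in 1 hemisphere also means that each library mixed tumor, normal brain and blood-derived cells, so that fewer cells of a type and less RNA per cell cannot be told apart.

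Total counts ran from 59736771 to 86164159 per library. Levels are given as CPM, read counts scaled to a common library size with TMM factors. Defining neuron markers of the brain were abundant in every library, with a lowest level of 165 CPM among the 8 markers. The library UMBO replicate 2 stood apart from the other 4: its summed neuron markers reached 2898 CPM against 5813 to 8890 CPM elsewhere, and its summed mitosis genes 473.8 CPM against 30.68 to 106.7 CPM. Across 23592 genes tested by edgeR's quasi-likelihood test with Benjamini-Hochberg adjustment, 0 (0%) had an adjusted p below 0.05, against 1738 (7.37%) at an unadjusted p below 0.05 and 39 of 23187 adjusted calls by DESeq2.

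Replication-dependent histones supply the nucleosome proteins that package DNA newly made in S phase. H2A, H2B, H3 and H4 form the core around which DNA winds, and H1 binds the linker DNA between nucleosomes. Their messages are the metazoan mRNAs known to end in a conserved stem-loop in place of a poly(A) tail. The stem-loop is bound by Slbp, it is cleaved after a short distance, and the mRNA is degraded when DNA synthesis stops. Several of the same genes can also use a downstream polyadenylation site, which gives a longer message that outlasts S phase and is known from differentiated cells. How mRNA was selected for these libraries is not given in the sources used here, and a selection for poly(A) tails would pass over messages that end at the stem-loop.

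The stem-loop is shown first because it is the feature by which the members differ at their ends. The 16-base motif (GG, 2 bases of any kind, CTTTT, 1 base of any kind, AG, 2 bases of any kind, CC) was searched on the coding strand of the annotated 3′ UTR (GENCODE M21, GRCm38). It was found in 43 of 67 members, beginning 21 to 58 bases after the stop codon, and in 6 variants, which each form a stem of 6 base pairs around a loop of 4 bases. In the lines below the paired stem bases stand in capitals and the loop in lower case.
Variant of 25 H1, H2A, H2B and H3 members: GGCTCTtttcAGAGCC
Variant of 7 H4 members: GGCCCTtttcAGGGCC
Variant of 6 H1, H2B and H3 members: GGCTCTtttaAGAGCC
Variant of Hist2h4 and Hist1h4i: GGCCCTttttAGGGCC
Variant of Hist1h4j and Hist1h4b: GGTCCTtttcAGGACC
Variant of Hist2h2ac: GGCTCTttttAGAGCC
The stems of all 11 H4 members with a motif differed from the stem that the other 32 shared. With 5 flanking bases on each side, the motif of the most abundant member stood at chr13:23739512-23739527 on the plus strand, 24 bases after the stop codon. The corresponding site of the most abundant H4 gene was at chr13:22040966-22040981 on the minus strand. In both lines the capitals mark the 16-base motif.
Hist1h1c: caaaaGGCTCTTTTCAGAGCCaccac
Hist1h4i: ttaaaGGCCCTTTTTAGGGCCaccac

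The members' levels differed with their annotated 3′ ends. In 22 members the annotated transcript ran on for more than 100 bases past the stem-loop (151 to 4884 bases), and these held between 62.6% and 65.8% of the summed CPM of all 67 members in each library. In 21 members it stopped 3 to 74 bases past the stem-loop, and these held 1.90% to 3.38%. Another 7 members had a 3′ UTR of over 50 bases without the motif and held 31.5% to 33.4%, nearly all of it from Hist1h2bc and Hist2h2be. The remaining 17 members had an annotated 3′ UTR of at most 50 bases and held 0.561% to 1.35%.

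The median member with a long end stood at 0.406 CPM per kilobase of exon, and the median member that ended close to the stem-loop at 0.0663 CPM per kilobase. Of the 11 members that averaged at least 1 CPM, 8 had the long end and 1, Hist1h4h, the short end. Read sharing and length moved with this grouping. Over 100-base windows along each member, the median share of windows found also in another member was 13.0% with the long end and 52.4% with the short end, and median exon length was 1255 and 482 bases. Their part in the difference in level was not tested, and annotated ends are themselves drawn from transcripts that were seen.

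**Figure D1:**
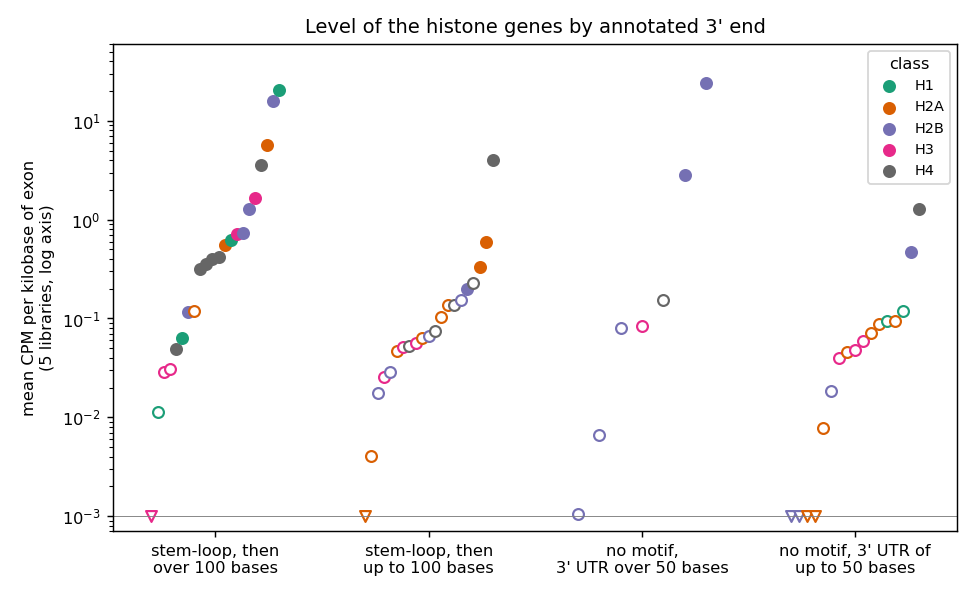
Mean level of each of the 67 members over the 5 libraries, in CPM per kilobase of exon on a log axis, by the annotated 3′ end. Filled circles are the 25 members with enough counts to test, open circles the others, and open triangles on the baseline the 6 members with no count. The filled circles crowd the long-ended column, which holds 17 of the 25.

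Expression was concentrated in few genes. The 6 most abundant members, Hist1h1c, Hist1h2bc, Hist3h2a, Hist3h2ba, Hist2h2be and Hist1h2be, held 84.6% to 89.2% of the summed CPM in each library, and Hist1h1c with Hist1h2bc alone 47.3% to 62.0%. In contrast, 56 of 67 members averaged under 1 CPM and 43 under 0.1 CPM. Per kilobase of exon, Hist1h2bc was highest at 24.3 CPM, followed by Hist1h1c at 20.7 and Hist3h2ba at 15.8. Replacement histones, which are made outside S phase from polyadenylated messages, reached 87.3 CPM per kilobase for H3f3b, an H3.3 gene, 54.6 for H1f0, the linker histone H1.0 gene, and 45.4 for H2afz, the H2A.Z gene.

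Only 25 members had enough counts to be tested, namely 3 H1, 4 H2A, 8 H2B, 2 H3 and 8 H4 genes. The other 42 had at most 15 counts in any library. Of these, 36 had at least 1 count in some library, and 6 (Hist2h2bb, Hist2h3c1, Hist1h2ag, Hist1h2ah, Hist1h2ba and Hist1h2aa) had none in any. Hist1h2aa and Hist1h2ba are the testis-type H2A and H2B genes. The testis-type linker gene Hist1h1t had 1, 0 and 0 counts with vehicle and 2 and 1 with UMBO. Untested members summed to 76, 71 and 96 counts with vehicle and to 105 and 133 counts with UMBO.

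**Figure D2:**
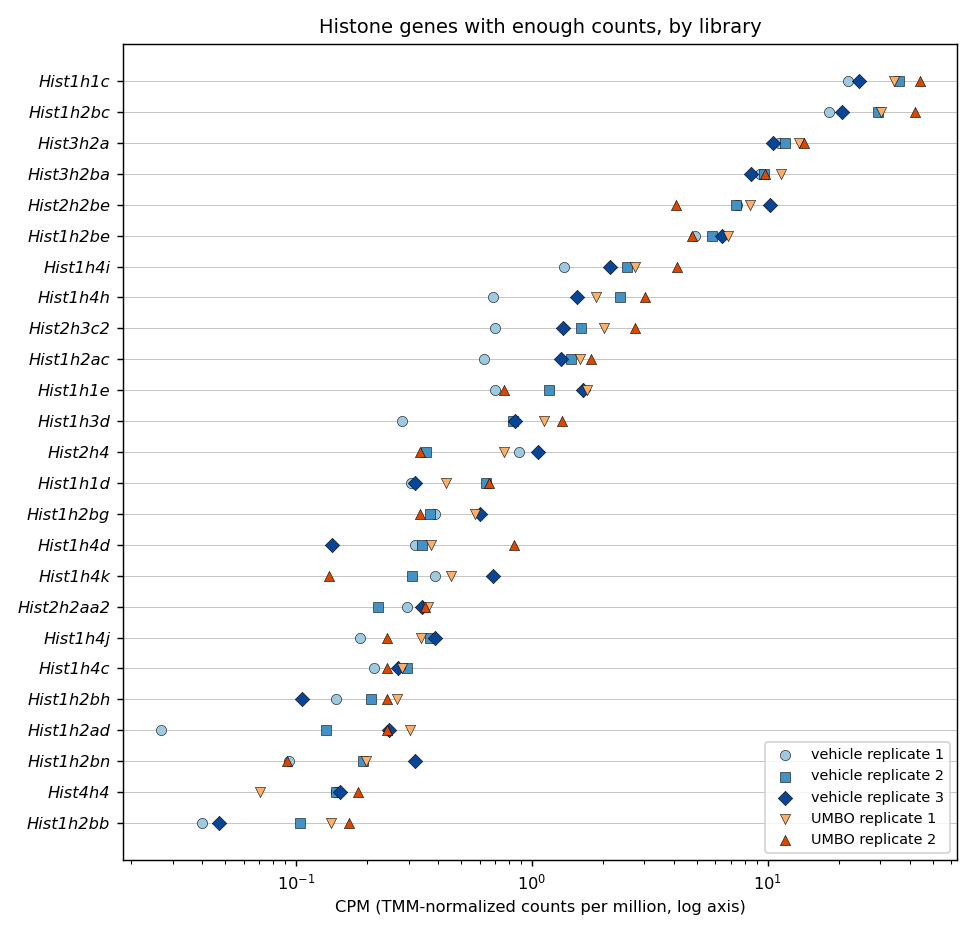
Level of the 25 tested members in each library, in CPM on a log axis, ordered by mean level. Blue symbols are the 3 vehicle libraries and orange symbols the 2 UMBO libraries. Hist1h1c and Hist1h2bc stand highest, and vehicle replicate 1 is the lowest of the 5 libraries for 13 members.

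The summed level of all 67 members was 81.72, 114.9 and 95.46 CPM with vehicle (97.4 ± 16.7, SD, n = 3) and 121.9 and 138.7 CPM with UMBO (130.3 ± 11.9, SD, n = 2). Both UMBO libraries lay above the 3 vehicle libraries. With 10 ways to group the 5 libraries, an exact permutation test of this sum could not go below a one-sided p of 0.1, and none was run. Of the 25 tested members, 19 had a higher and 6 a lower fitted level with UMBO, where 50.9% of all tested genes were higher. For 11 of the 25 the lower UMBO library exceeded the highest vehicle library, and for 0 both UMBO libraries fell short of the lowest, against 11.5% and 11.4% of all tested genes.

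The median log2 fold change of the tested members was 0.32, against 0.01 over all genes tested. Hist1h2bb passed the count filter only through its UMBO libraries. Without it, 18 of 24 were higher, 10 of 24 lay above the vehicle range and the median was 0.31. By edgeR's quasi-likelihood test with Benjamini-Hochberg adjustment over all genes, 0 members had an adjusted p below 0.05. At an unadjusted p below 0.05 there was 1, Hist1h2bc, where 5.30% of all tested genes were called higher and 2.06% lower. DESeq2 called 0 members at an adjusted p below 0.05 and 1, Hist2h3c2, without adjustment, out of 61 members it fitted and against 6.77% of all genes it fitted.

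The individual libraries moved some of these values. The median log2 fold change was 0.63 without UMBO replicate 1, when UMBO replicate 2 stood alone for its group, and lay between 0.28 and 0.40 without any other library. Leaving out vehicle replicate 1 or vehicle replicate 3 left 0 of 25 members at an unadjusted p below 0.05. Of all genes tested, 296 of 23137 and 432 of 22953 were below it in these fits.

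**Figure D3:**
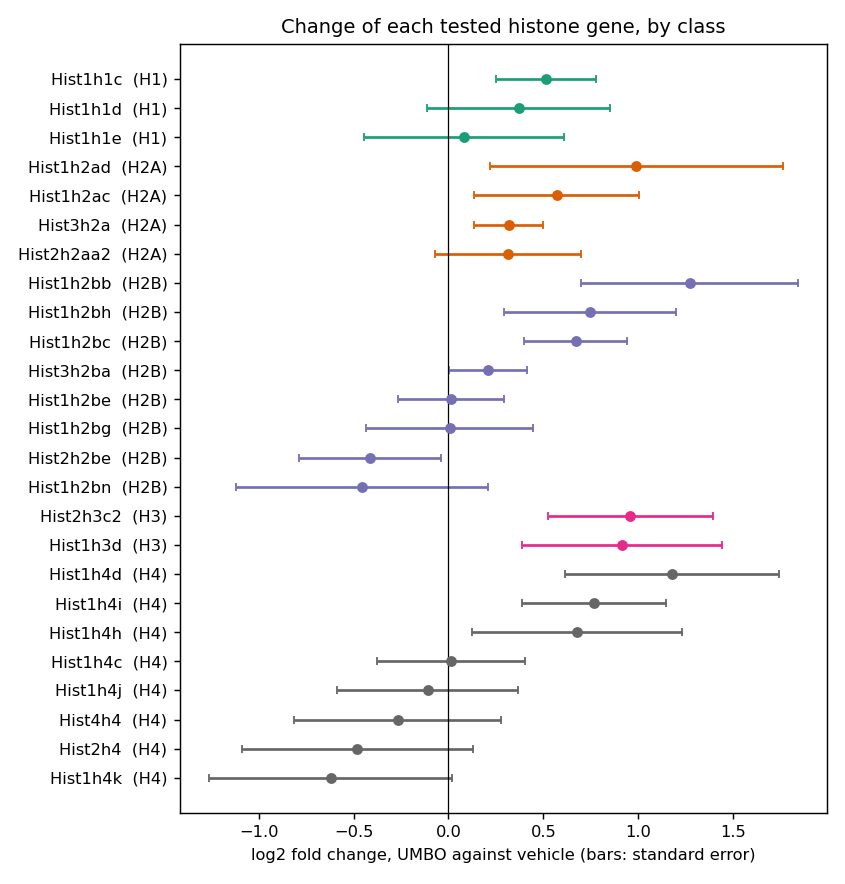
Log2 fold change of each tested member, UMBO against vehicle, with its standard error as a bar, ordered by class. The tested H1, H2A and H3 genes lie above 0, while H2B and H4 genes lie on both sides and 4 of 8 tested H4 genes are below it.

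The linker histone genes were higher on average with UMBO but overlapped between groups. Hist1h1c encodes H1.2, a somatic linker histone, from a single exon at chr13:23738808-23740367. It stood at 21.97, 36.09 and 24.47 CPM with vehicle and at 34.48 and 44.02 CPM with UMBO. Vehicle replicate 2 lay between the UMBO libraries, so the groups overlapped. The log2 fold change was 0.51 with a standard error of 0.26 (unadjusted p = 0.1001, adjusted p = 0.4973 by edgeR's quasi-likelihood test).

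Hist1h1e encodes H1.4 and had 0.6954, 1.187 and 1.642 CPM in the vehicle libraries against 1.72 and 0.7634 CPM in the UMBO libraries. Its UMBO libraries lay near opposite ends of the whole range, and its exon overlaps that of Hist1h2be on the same strand. Hist1h1d, an H1.3 gene, had 0.3076, 0.6379 and 0.3189 CPM with vehicle and 0.4329 and 0.6566 CPM with UMBO, again with an overlap at vehicle replicate 2. Summed over the 6 H1 genes, the level was 29.2 ± 7.86 CPM (SD, n = 3) with vehicle and 41.3 ± 6.31 CPM (SD, n = 2) with UMBO.

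H2A genes had the smallest spread among vehicle libraries relative to their mean. Their summed level was 12.42, 13.94 and 12.73 CPM with vehicle and 16.18 and 17.39 CPM with UMBO. Each UMBO library exceeded the highest vehicle library. Most of this came from Hist3h2a, at chr11:58954685-58956830, with 11.22, 11.84 and 10.50 CPM with vehicle and 13.62 and 14.25 CPM with UMBO. The groups did not overlap, and the log2 fold change was 0.32 with a standard error of 0.18 (unadjusted p = 0.1361). An exon of Trim17 overlaps Hist3h2a on the same strand, so reads of the overlap could belong to either gene. Hist1h2ac had 0.6285, 1.469 and 1.323 CPM with vehicle and 1.603 and 1.786 CPM with UMBO, without overlap, at a log2 fold change of 0.57 ± 0.44 (standard error).

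The most abundant H2B genes, Hist1h2bc and Hist2h2be among them, did not share a direction. Hist1h2bc spans chr13:23684199-23692908 with 2 exons, where most members have 1, and its annotated 3′ UTR of 742 bases held no stem-loop motif. It stood at 18.12, 29.39 and 20.71 CPM with vehicle and at 30.31 and 42.03 CPM with UMBO. The 2 groups were apart by a narrow margin, between vehicle replicate 2 and UMBO replicate 1. Its log2 fold change was 0.67 with a standard error of 0.27 (unadjusted p = 0.04789, adjusted p = 0.4973 by edgeR's quasi-likelihood test). Without any 1 library the log2 fold change ran from 0.42 to 0.93.

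Hist2h2be encodes an H2B variant known from neurons, in particular olfactory neurons, and known to be made outside S phase, although its symbol places it in the set. Its annotated 3′ UTR of 2192 bases held no stem-loop motif. The vehicle libraries had 7.409, 7.328 and 10.23 CPM and the UMBO libraries 8.40 and 4.092 CPM. UMBO replicate 2 was the lowest of the 5 and UMBO replicate 1 lay inside the vehicle range. The log2 fold change was -0.41 with a standard error of 0.37 (unadjusted p = 0.3126). It became -1.05 without UMBO replicate 1 and 0.01 without UMBO replicate 2. UMBO replicate 2 was also the library with the lowest neuron markers, at a median of -1.22 on the log2 scale relative to the vehicle mean, against -0.178 in UMBO replicate 1. The part of neuron content in the level of Hist2h2be was not tested.

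Hist3h2ba, the neighbour of Hist3h2a at chr11:58948920-58949533, had 9.267, 9.672 and 8.457 CPM with vehicle and 11.39 and 9.696 CPM with UMBO. UMBO replicate 2 exceeded vehicle replicate 2 by a margin far below the vehicle spread of 0.619 CPM (SD). Hist1h2be had 4.935, 5.83 and 6.402 CPM with vehicle and 6.797 and 4.764 CPM with UMBO, so that the UMBO libraries were the highest and the lowest of the 5. Hist1h2bg had 0.3878, 0.3709 and 0.6024 CPM with vehicle and 0.5733 and 0.3359 CPM with UMBO. The groups overlapped, with UMBO replicate 1 inside the vehicle range and UMBO replicate 2 the lowest of the 5 libraries. Hist1h2be and Hist1h2bg had a log2 fold change near 0, and the sign changed with the settings.

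At lower levels, Hist1h2bh had 0.1471, 0.2077 and 0.1063 CPM with vehicle and 0.2691 and 0.2443 CPM with UMBO. Hist1h2bb had 0.04012, 0.1038 and 0.04725 CPM with vehicle and 0.1404 and 0.168 CPM with UMBO, from 3 to 12 counts per library. The groups did not overlap for either gene, and neither reached an unadjusted p below 0.05. Summed over 18 H2B genes, the level was 47.0 ± 6.30 CPM (SD, n = 3) with vehicle and 59.9 ± 2.39 CPM (SD, n = 2) with UMBO.

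The 2 tested H3 genes had UMBO values that all exceeded the vehicle values. Hist2h3c2, at chr3:96238108-96239127, had 0.6954, 1.617 and 1.358 CPM with vehicle and 2.024 and 2.733 CPM with UMBO. Hist1h3d, at chr13:23575763-23577011, had 0.2808, 0.8308 and 0.8505 CPM with vehicle and 1.123 and 1.344 CPM with UMBO. Vehicle replicate 1 was the lowest library for both. The log2 fold changes were 0.96 ± 0.43 and 0.91 ± 0.53 (standard errors), at unadjusted p-values of 0.06994 and 0.1341 by edgeR's quasi-likelihood test. Of the windows of Hist2h3c2, 61.6% also occurred in another member, so its reads could be lost or shared with another member. The 12 H3 genes summed to 2.07 ± 0.768 CPM (SD, n = 3) with vehicle and 3.95 ± 0.786 CPM (SD, n = 2) with UMBO.

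The H4 genes encode near-identical proteins, yet did not move together. Hist1h4i had 1.364, 2.522 and 2.15 CPM with vehicle and 2.738 and 4.123 CPM with UMBO. Hist1h4d had 0.3209, 0.3412 and 0.1417 CPM with vehicle and 0.3744 and 0.8398 CPM with UMBO. For these genes both UMBO libraries were above the vehicle libraries, by log2 fold changes of 0.77 ± 0.38 and 1.18 ± 0.56 (standard errors). Hist1h4h had 0.682, 2.359 and 1.547 CPM with vehicle and 1.872 and 3.023 CPM with UMBO, which overlapped.

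In Hist1h4k and Hist2h4 the order was different. Hist1h4k had 0.3878, 0.3115 and 0.6851 CPM with vehicle and 0.4563 and 0.1374 CPM with UMBO, and Hist2h4 had 0.8826, 0.356 and 1.063 CPM with vehicle and 0.7604 and 0.3359 CPM with UMBO. In both, UMBO replicate 2 was lowest and UMBO replicate 1 lay within the vehicle range. The log2 fold changes were -0.62 ± 0.64 and -0.48 ± 0.61 (standard errors). The annotation gives Hist1h4k no 3′ UTR, and 64.3% of its windows occur in another member, whereas Hist2h4 shares 0%. The 13 H4 genes summed to 6.00 ± 1.41 CPM (SD, n = 3) with vehicle and 8.37 ± 1.58 CPM (SD, n = 2) with UMBO.

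**Figure D4:**
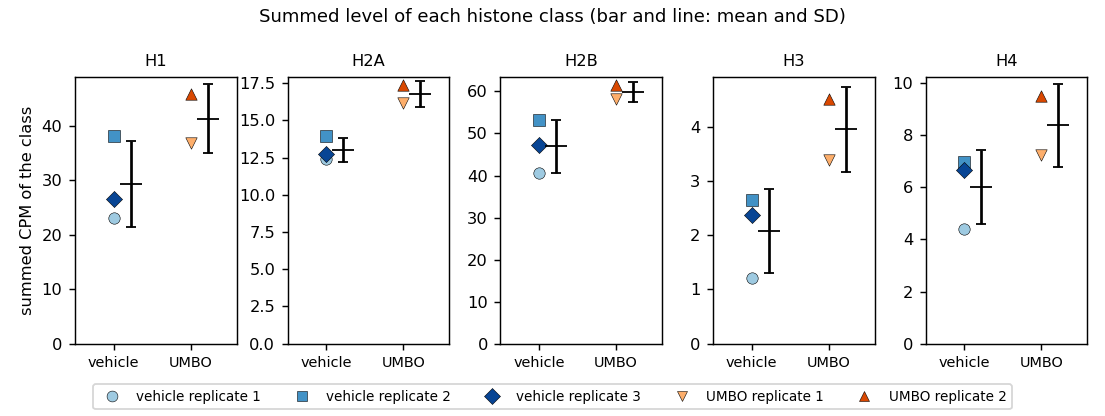
Summed CPM of each histone class by library, on axes that start at 0, with group mean and SD as a bar and line. For H2A, H2B, H3 and H4 both UMBO libraries lie above the 3 vehicle libraries, while for H1 vehicle replicate 2, at 38.08 CPM, lies above UMBO replicate 1, at 36.81 CPM.

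The libraries differed within each group in a way that split the members. UMBO replicate 2 was the highest of the 5 libraries for 12 of the 25 tested members, among them Hist1h1c, Hist1h2bc, Hist1h4i and Hist2h3c2. It was the lowest for 6 others, which were Hist2h2be, Hist1h2be, Hist2h4, Hist1h2bg, Hist1h4k and Hist1h2bn. Vehicle replicate 1 was the lowest for 13 members and the highest for 0. These counts describe single libraries, and were read from the same values as the comparison.

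The promoters of 3 members are shown because motif content differed between the histone classes. Of 67 members, 62 had a promoter in the RefSeq table (GRCm38.p6), giving 63 windows of 250 bases before to 50 bases after the start. The CCAAT box was searched on both strands and was found in 85.7% of the members' windows against 37.4% of 32851 windows of all genes. It was present in every H1, H2A, H2B and H3 window and in 3 of 12 H4 windows. The octamer ATTTGCAT was found in 7 of 18 H2A and 7 of 17 H2B windows and in no H1, H3 or H4 window, against 1.74% of all windows. The H1 box AAACACA was found in 5 of 6 H1 windows, 2 H2A and 2 H2B windows, against 7.18% of all windows, and TATAAA in 55.6% of the members' windows against 13.6%. Motifs that share end letters can overlap, each was counted on its own, and a match is a description of the letters only. Windows of neighbouring members on opposite strands can also overlap, so the same motif can be counted for both genes and both classes. For example, Hist1h2ae on the minus strand ends at chr13:23571220 and Hist1h2bg on the plus strand starts at chr13:23571396.

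The 250 bases before the start are printed 5′ to 3′ on the gene's strand, with these motifs in capitals on either strand. Hist1h1c (chr13:23738557-23738806) holds an H1 box 112 bases and a CCAAT box 54 bases before the start. Hist3h2a (chr11:58954435-58954684) holds the octamer on the opposite strand at 119 bases, and a CCAAT box on each strand at 86 and 68 bases. Hist1h4i (chr13:22041363-22041612, minus strand) holds none of these but a TATAAA at 137 bases.
Hist1h1c: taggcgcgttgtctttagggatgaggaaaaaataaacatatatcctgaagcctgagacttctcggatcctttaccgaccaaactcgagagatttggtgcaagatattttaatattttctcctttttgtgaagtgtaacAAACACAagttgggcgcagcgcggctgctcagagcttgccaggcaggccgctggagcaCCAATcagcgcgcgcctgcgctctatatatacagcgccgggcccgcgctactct
Hist3h2a: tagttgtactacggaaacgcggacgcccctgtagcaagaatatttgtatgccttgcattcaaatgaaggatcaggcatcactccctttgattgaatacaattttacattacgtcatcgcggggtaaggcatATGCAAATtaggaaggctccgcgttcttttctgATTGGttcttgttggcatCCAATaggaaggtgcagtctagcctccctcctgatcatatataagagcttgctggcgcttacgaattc
Hist1h4i: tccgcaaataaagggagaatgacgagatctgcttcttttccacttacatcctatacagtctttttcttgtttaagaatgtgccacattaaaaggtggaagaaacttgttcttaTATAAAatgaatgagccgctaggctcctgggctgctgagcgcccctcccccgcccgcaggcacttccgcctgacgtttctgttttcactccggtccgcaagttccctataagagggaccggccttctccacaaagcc

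The genes that make and process histone mRNA did not share a direction. Of 17 tested, 9 were higher and 8 lower, with 0 at an adjusted or an unadjusted p below 0.05 by edgeR's quasi-likelihood test and a median log2 fold change of 0.03. DESeq2 also gave 0 adjusted calls. Without UMBO replicate 1, 2 of them had an adjusted p below 0.05 by the quasi-likelihood test. Slbp, which binds the stem-loop, had 22.36, 23.51 and 21.32 CPM with vehicle and 24.05 and 37.68 CPM with UMBO, the last in UMBO replicate 2. Npat, the coactivator of histone transcription, had 32.68, 22.06 and 32.26 CPM with vehicle and 25.27 and 15.07 CPM with UMBO. Their log2 fold changes were 0.46 ± 0.23 and -0.52 ± 0.30 (standard errors), and UMBO replicate 2 was the extreme library in both.

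Replacement histone genes had a median log2 fold change of 0.59, with 10 of 11 higher and 2 at an unadjusted p below 0.05. Of all tested genes, 50.9% were higher and 7.37% had an unadjusted p below 0.05. Cenpa, the centromeric H3 variant, had 4.039, 10.01 and 3.225 CPM with vehicle and 8.739 and 45.64 CPM with UMBO. H2afj, an H2A variant, had 23.24, 27.19 and 22.16 CPM with vehicle and 30.68 and 43.33 CPM with UMBO. Of Cenpa and H2afj, only H2afj was above the vehicle range in both UMBO libraries, and UMBO replicate 2 was the highest for each. Of all 11 replacement histones, 2 lay above the vehicle range in both UMBO libraries and 1 below it, against 11.5% and 11.4% of all tested genes. Histone chaperones, which escort histones onto DNA, had a median of 0.21, with 17 of 21 higher. At an unadjusted p below 0.05 there were 2 of 21 chaperones, against 7.37% of all tested genes. The 2 chaperones were Asf1b, at a log2 fold change of 2.04 ± 0.77, and Chaf1a, a subunit of the assembly factor CAF-1, at 1.18 ± 0.46 (standard errors). Without UMBO replicate 2 the medians were 0.07 for replacement histones and 0.01 for chaperones, and the chaperone median was 0.44 without UMBO replicate 1 and 0.33 without vehicle replicate 2. Without vehicle replicate 1 or vehicle replicate 3, 0 genes of either list had an unadjusted p below 0.05. Of all genes tested, 296 of 23137 and 432 of 22953 did in these fits.

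S phase genes had larger fitted differences than most histone members. All 24 S phase genes had a higher fitted level with UMBO, 17 at an unadjusted p below 0.05 and 0 after adjustment by edgeR's quasi-likelihood test, with a median log2 fold change of 1.48. For all 10 mitosis genes the unadjusted p was below 0.05, against 7.37% of all tested genes, and the median was 2.28. Without UMBO replicate 2 the medians were 0.26 for S phase and 0.91 for mitosis. The S phase list stood at a median of 0.332 above the vehicle mean on the log2 scale in UMBO replicate 1, and at 2.13 for the other UMBO library. The tested histone members stood at 0.353 and 0.350 in the same libraries. Rrm2, which makes deoxynucleotides, had 3.678, 7.922 and 3.39 CPM with vehicle and 8.973 and 34.48 CPM with UMBO. UMBO replicate 2 was far above the others for the S phase and mitosis lists, while only the median of the histone members was level between the UMBO libraries. The summed CPM of the tested members was 120.6 in UMBO replicate 1 and 136.7 in UMBO replicate 2. Of the 25 tested members, UMBO replicate 2 was the highest library for 12 and the lowest for 6.

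Without UMBO replicate 1, the median log2 fold change was 2.06 for S phase genes, 2.91 for mitosis genes, 0.81 for replacement histones and 0.44 for chaperones. For the 30 histone members tested in that fit it was 0.63. The 1 UMBO library left was assumed to vary like the vehicle libraries. Without vehicle replicate 1 or vehicle replicate 3, 0 S phase genes and 1 mitosis gene had an unadjusted p below 0.05. Of all genes tested, 296 of 23137 and 432 of 22953 did in these fits. The difference between lists was not tested.

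**Figure D5:**
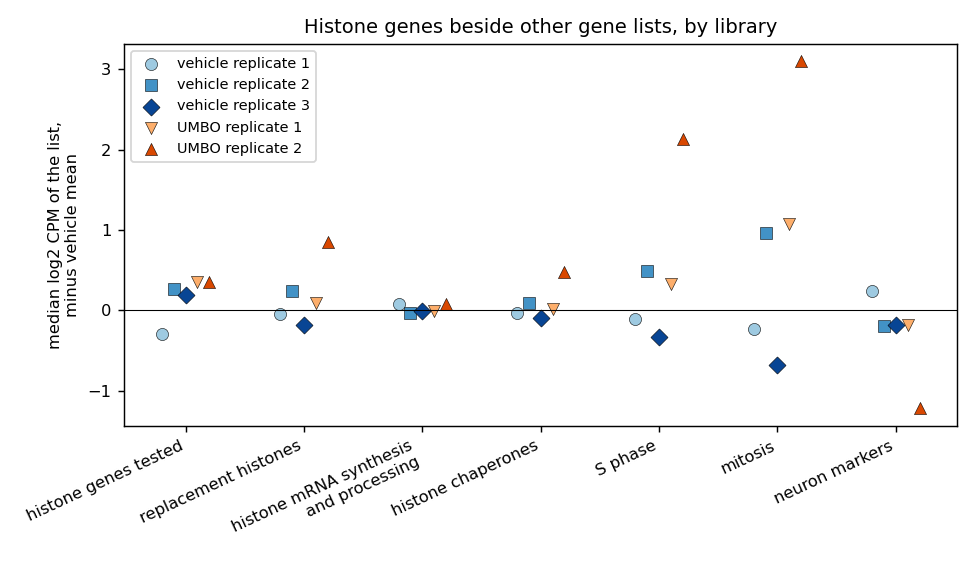
Median log2 CPM of each gene list in each library, relative to the vehicle mean of each gene. UMBO replicate 2 stands at 2.13 for S phase, 3.10 for mitosis and -1.22 for neuron markers, but at 0.350 for the tested histone genes, beside UMBO replicate 1 at 0.353.

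Markers of other cell types also moved between the libraries. An unadjusted p below 0.05 was found for 6 of 8 microglia and 4 of 7 endothelial markers, against 7.37% of all tested genes. Microglia markers had a median log2 fold change of 0.72 and endothelial markers 0.58. Their medians relative to the vehicle mean were 0.696 and 0.771 in the UMBO libraries for microglia, and 0.552 and 0.628 for endothelium. Like the tested histone members, both lists were lowest in vehicle replicate 1, at -0.265 and -0.303 against -0.290 for the histone members. The medians of red blood cell genes, monocyte and macrophage markers and T cell markers were also lowest there, at -0.723, -1.13 and -1.06. Monocyte and macrophage markers summed to 17.05, 111.1 and 35.88 CPM with vehicle and 79.53 and 424.0 CPM with UMBO, and T cell markers to 17.53 to 28.9 CPM with vehicle and 10.32 and 38.29 CPM with UMBO. The median log2 fold change was 2.31 for monocyte and macrophage markers, with 7 of 7 higher. For T cell markers it was 0.90, with 6 of 7 higher and Cd4 lower. Relative to the vehicle mean, UMBO replicates 1 and 2 stood at 0.647 and 4.06 for the first list and -0.591 and 1.92 for the second. Astrocyte and oligodendrocyte markers had medians of 0.00 and -0.04. The part of these cell types in the histone values was not tested.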

How the data were processed

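RNA sequencing of 5 hemispheres was analyzed, 3 from vehicle and 2 from UMBO mice. The study's methods include more mice in this experiment than were analysed here. The authors deposited 1 table of raw counts per gene for each library, made with STAR 2.7.2a on GRCm38 per the labels. The annotation release, the strand setting and how mRNA was selected are not given in the sources used here. Gene identifiers were named with GENCODE M21 (GRCm38), which matched 55394 of 55573, and unmatched rows held at most 0.101% of counts. Counts were analyzed in R 4.3.3 with edgeR 4.0.16 (TMM, filterByExpr with a minimum count of 10, quasi-likelihood test, no covariates). P-values were adjusted by the Benjamini-Hochberg method over all 23592 genes tested. Standard errors are of the log2 fold change and were derived from the quasi-likelihood test. Each is the absolute log2 fold change divided by the square root of the test's F statistic. DESeq2 1.42.0 was an alternative. Levels per kilobase used the union of annotated exons. Tests were checked on simulated data with 200 genes changed 4-fold. With the spread of these libraries, 79 of the 200 had an adjusted p below 0.05, and 0 unchanged genes did. With a dispersion (relative variance between libraries) of 0.01, 191 of the 200 were called, and 6 unchanged genes.

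The members and gene lists were chosen with earlier results of these data known. Values by library are given for the 15 members with the highest mean CPM, the 3 with the smallest p in each direction and up to 10 whose UMBO libraries both lay outside the vehicle range, 19 in all. Of other lists, Slbp, Npat and genes among the 4 with the smallest p were named; H3f3b, H1f0 and H2afz were named for their level, after it was seen. Counting error and animal spread were not separated, and near-identical members may have lost or shared reads. Other normalizations, filters, a replicate block and the omission of each library were tried. The replicate numbers are shared by only 2 pairs of libraries, and nothing in the labels ties mice with the same number.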

Additional observations from a re-analysis of the deposited data

How the results depend on the processing

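The count of histone members at an adjusted p below 0.05 was 0 under every alternative run, and the count of all genes was 0 except where given here. At an unadjusted p below 0.05, the count for all genes was 4100 of 40435 with no filter on low counts. It was 2738 of 40434 by DESeq2's Wald test, which gave 39 adjusted calls. The members' count was 3 of 61 with no filter, of which 2 were higher. With a CPM of at least 1 in 2 libraries it was 0 of 12, against 1186 of 16678 genes. With the replicate number as a block, 2337 genes had an adjusted p below 0.05 and 6134 an unadjusted one. With the block, 7 of 25 tested members had an unadjusted p below 0.05, against 6134 of 23592 genes. The smallest adjusted p of a member was 0.05091 by edgeR's quasi-likelihood test. The block also gave adjusted calls for 1 replacement histone, 2 chaperones, 15 S phase genes and 10 mitosis genes. Deviations of same-numbered libraries correlated at 0.453 and 0.760 over 2 pairs; with fewer than 3 pairs and no label tying the mice, whether the numbers pair the libraries cannot be settled. Scaling by library size alone moved the median of all genes from 0.01 to 0.13, and that of the tested members to 0.43.

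Leaving out 1 library at a time, the unadjusted count for all genes ran from 296 (without vehicle replicate 1) to 10165 (without UMBO replicate 1), with 455 without UMBO replicate 2, 432 without vehicle replicate 3 and 2674 without vehicle replicate 2. The adjusted count ran from 0 to 4543, and the adjusted counts of the lists from 0 to 6 for replacement histones, 0 to 2 for mRNA processing, 0 to 8 for chaperones, 0 to 21 for S phase and 0 to 10 for mitosis, each highest without UMBO replicate 1. Of the members, 3 of 25 had an unadjusted p below 0.05 without vehicle replicate 2, against 2674 of 23120 genes. Without vehicle replicate 1 or vehicle replicate 3, 0 of 25 members did, against 296 of 23137 and 432 of 22953 genes. The members' median log2 fold change ran from 0.28 to 0.63 over all 5 omissions. Among single members, the log2 fold change of Hist1h2be was -0.0049 with no filter, -0.0044 by DESeq2 and -0.29 to 0.25 over the omissions. For Hist1h2bg it was -0.00028 with DESeq2 size factors, -0.014 with no filter, -0.013 by DESeq2 and -0.47 to 0.33 over the omissions. Over the same omissions it was -1.05 to 0.0141 for Hist2h2be and -0.65 to 0.55 for Hist1h1e. Over all alternatives, the smallest adjusted p of a member ran from 0.05091 to 0.9999. The causes were not tested. Low counts kept 42 of 67 members from being tested. For the tested members, counting error and the spread between animals were not separated.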

Other observations

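Annotated histone pseudogenes carried few counts. Hist3h2bb-ps, at chr11:58954048-58954512 beside Hist3h2a, had 16, 12 and 21 counts with vehicle and 17 and 5 with UMBO. Hist1h2al had 4, 2 and 1 counts with vehicle and 3 and 6 with UMBO, and Hist1h2aj had at most 1 count in any library. The highest count of Hist3h2bb-ps was above that of 42 protein-coding members, which had at most 15 counts in any library.

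Among members too scarce to test, Hist1h2ae had 1, 4 and 5 counts with vehicle and 5 and 15 with UMBO, and Hist1h4a had 3, 7 and 2 counts with vehicle and 4 and 13 with UMBO. Hist1h2bp had 8, 2 and 10 counts with vehicle and 1 and 1 with UMBO. These genes were chosen after their values were seen.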
